A study of Mus musculus with 2 samples.

Results

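Distal open chromatin regions that were called in late retinal progenitor cells (RPCs) after Neurog3 overexpression (Ngn3-OE), and not in control cells, are described here as a set of 2762 peaks out of 124935 distinct peaks in the Ngn3-OE library. The set was selected on the peak lists themselves. A peak belonged to it when it did not overlap any control peak by even 1 bp, when its summit lay more than 3 kb from every annotated transcript start, and when its fold enrichment was at or above 6.36, the median of the Ngn3-OE list. Peak strength and absence from the control list are therefore conditions of entry and not findings, whereas DNA sequence and the nearest genes were not used by the rule.

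The data came from ATAC-seq, an assay that maps DNA left exposed by nucleosomes through cuts of the Tn5 transposase. At postnatal day 1, mouse pups received a control plasmid or an Ngn3-OE plasmid by in vivo electroporation, and GFP labelled the cells reached in both groups. GFP-labelled late RPCs from the retina were sorted at day 2 after electroporation, and 50000 cells went into each library. Each group had 1 library, so no test between the groups was possible, and the differences below describe these libraries with counting error only. Electroporation reaches a mixture of progenitors and of cells born since, so a peak that is gained in some cells and a peak in cells that became more frequent cannot be told apart. Peaks were present within 3 kb of a start site of all 10 retinal genes checked in both libraries (among them Pax6, Rax, Six3, Six6, Lhx2, Sox2, Sox9, Otx2 and Crx). Of 12 genes of blood, vessel, liver, muscle and epithelium, 6 had such a peak in each library, and Ptprc, Cx3cr1, Pecam1, Alb and Krt5 had none in either.

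Neurogenin 3 is a basic helix-loop-helix (bHLH) transcription factor of the proneural family, which pairs with an E protein and binds a short palindromic element called the E-box, CANNTG. The form CATCTG, which reads CAGATG on the other strand, is the one preferred by neurogenins and NeuroD factors. In the retina, CRX and OTX2 are homeodomain factors that drive photoreceptor genes through the element GGATTA, which reads TAATCC on the other strand, whereas SOX factors such as SOX2 and SOX9 maintain progenitors and Müller glia through elements built on ATTGT. Distal open regions are commonly enhancers or other regulatory elements, and they lie in introns or between genes, often far from the promoter they act on.

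The strongest peaks show what these elements look like in sequence. Each line below holds 100 bases around the summit on the plus strand of mm10, 5′ to 3′, named by the gene with the nearest protein-coding start. Capitals mark CATCTG or CAGATG and GGATTA or TAATCC. The first 4 are the strongest peaks with an E-box of this form near the summit, the Sox5 peak is the strongest with the CRX/OTX element alone, and the Lgi2 peak holds neither.
Mycbp2, chr14:103356225-103356324: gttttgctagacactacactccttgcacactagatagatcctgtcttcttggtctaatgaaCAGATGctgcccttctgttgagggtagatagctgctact
Ccr6, chr17:8215573-8215672: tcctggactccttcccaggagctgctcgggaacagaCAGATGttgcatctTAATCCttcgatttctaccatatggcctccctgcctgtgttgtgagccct
Iqcm, chr8:75956148-75956247: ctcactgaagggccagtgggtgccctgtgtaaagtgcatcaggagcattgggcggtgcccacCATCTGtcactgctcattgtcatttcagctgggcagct
Vps8, chr16:21376774-21376873: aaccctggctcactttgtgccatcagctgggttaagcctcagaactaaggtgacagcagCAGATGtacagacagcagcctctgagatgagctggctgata
Sox5, chr6:144621530-144621629: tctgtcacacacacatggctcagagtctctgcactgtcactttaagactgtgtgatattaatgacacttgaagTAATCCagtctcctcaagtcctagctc
Lgi2, chr5:52603432-52603531: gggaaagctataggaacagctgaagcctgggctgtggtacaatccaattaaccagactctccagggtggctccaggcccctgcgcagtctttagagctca

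The peak near Mycbp2, which encodes a ubiquitin ligase of axons and synapses, had the highest fold enrichment of the set, 24.6, with a −log10 q of 52.9. It rested on 39 tags at the summit (exact Poisson 95% interval 27.7 to 53.3), lay between genes 9.46 kb upstream of the start, and was 1.36 kb from the nearest control peak. The peak 20.4 kb upstream of Ccr6, a chemokine receptor gene, had a fold enrichment of 16.0 from 21 tags and carried both elements close together in the window shown above. The Sox5 peak, in an intron of this SOX factor gene, had a fold enrichment of 15.1 from 18 tags. The peak in an Iqcm intron had 14.3 from 17 tags and lay 38.3 kb from any control peak, and the peak near Vps8 had 13.9 from 20 tags. Of the 11 peaks among the highest 10 by fold enrichment or by −log10 q, 4 held the E-box within 100 bp of the summit and 2 held the CRX/OTX element. The position of some strong peaks was less certain. The peak nearest to Slc6a14 on the X chromosome (fold enrichment 23.9, 29 tags) was 64 bp wide and had 9 near-identical copies in the genome. The peak in an intron of St8sia1 (14.3, 17 tags) lay in a masked repeat with 55 copies, and the peak near Gtpbp4 (20.7, 25 tags) was a single-copy stretch only 55 bp wide. Their part in the values above was not tested.

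Most of the set was much weaker than these. Fold enrichment had a median of 7.16 and an upper quartile of 7.95, and the −log10 q ran from 6.66 to 52.9 with a median of 8.37. The summits held 7 to 39 tags with a median of 8, and only 21 peaks had 20 tags or more. As many as 924 peaks, 33.5% of the set, sat exactly at the threshold with 7 tags over a background of 0.257. The threshold was 6.364, the next fold enrichment above it was 6.368, and the next Ngn3-OE-only distal peak below it, outside the set, had 6.360. A further 21670 Ngn3-OE-only distal peaks lay below the threshold. In the control list, the lowest pileup called over the genome-wide background was 3 tags, so a region there with fewer tags would not be listed. For comparison, the same rule was turned around to give 2271 control-only distal peaks. Their tags had a median of 9, and 52 of them reached 20 tags.

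**Figure D1:**
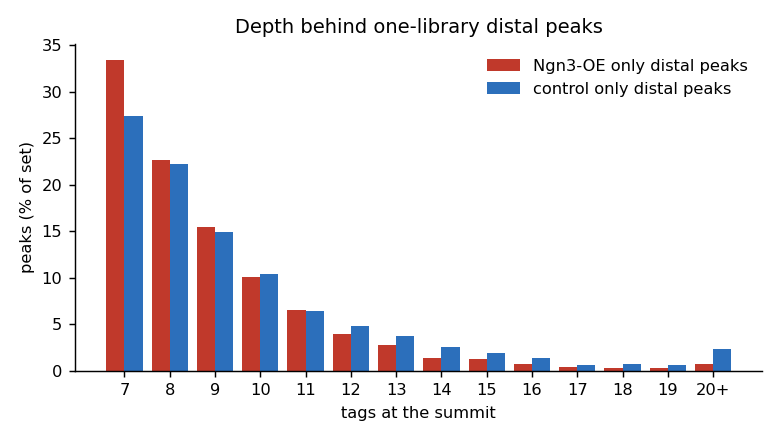
Share of peaks (y axis, % of each set) by the number of tags at the summit (x axis) for Ngn3-OE-only and control-only distal peaks, with 20 or more tags pooled. Both sets pile up at the lowest values the rule admits, 7 and 8 tags, and the control-only set has the longer upper end.

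Absence from the other list was common among weak peaks and uncommon among strong ones. Of all Ngn3-OE peaks, 26.6% had no control peak, and of the 79984 distal ones 30.5%. At or above the median the share was 7.22% of 38235 distal peaks, and in the reverse direction 6.28% of 36153 distal control peaks. The 2762 peaks made up 3.45% of all distal Ngn3-OE peaks, which is the background for the counts per gene below. They were narrower than the 35473 shared distal peaks that passed the same threshold, which were also stronger, with a median fold enrichment of 10.2 against 7.16. The median width was 112 bp against 170 bp (128 bp for control-only peaks). Only 0.978% had more than 1 summit, against 3.74% of control-only and 9.68% of shared peaks. The nearest control peak was a median of 5.32 kb away, with 411 peaks closer than 500 bp and 130 more than 50 kb from any control peak. The summit lay in a masked repeat for 8.91%, close to the 8.94% of control-only peaks, and 61 peaks had a near-identical copy elsewhere.

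The E-box CATCTG was the most frequent of the 10 E-box forms in the set. It lay within 100 bp of the summit of 873 of the 2762 peaks, 31.6% (95% Wilson interval 29.9 to 33.4). The share was 17.1% in control-only peaks, a difference of 14.5 percentage points (95% Newcombe interval 12.2 to 16.8), and 27.1% in shared distal peaks, a difference of 4.47 points (2.70 to 6.29). Both differences shrank without the fold threshold, to 6.03 and 0.947 points. With each list cut to its 50000 peaks of highest −log10 q, which also dropped weaker control peaks, the differences were 7.74 and 1.71. At the upper quartile they were 23.5 and 9.58 points, the latter with an interval from −1.17 to 21.7. Windows 2 kb to either side of the same summits held it in 16.1%, close to the control-only summits. Without the peaks that had near-identical copies, the difference from control-only peaks was 14.6 points. A higher share at the summit than in windows 2 kb away was not unique to this E-box. The form preferred by myogenic factors, given below, was found in 18.6% of the set and in 9.16% of such windows. For control-only peaks the shares of that form were 18.8% and 7.88%. The forms other than the most frequent one differed less from control-only peaks. CATATG was found in 6.63%, against 3.92% of control-only and 5.22% of shared peaks. CACCTG, the form of many E proteins and repressors, was found in 10.9% against 8.06% and 12.4%, so it was higher than in control-only peaks but lower than in shared ones. CAGCTG, the form preferred by myogenic factors, was found in 18.6% against 18.8% of control-only peaks (difference −0.27 points, interval −2.45 to 1.88) and 22.4% of shared peaks. CAAATG was less frequent than in control-only peaks, 12.1% against 15.9%.

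The bases beside the core also differed. Read in the direction CATCTG, the base before it was C in 49.1% of the 1114 matches in the set, 29.5% of the 438 matches in control-only peaks and 47.8% in shared peaks. The base after it was T in 37.5%, 21% and 31.7%, and A in 12.1%, 22.8% and 12.4%. The E-boxes in Ngn3-OE-only and shared peaks thus had nearly the same left flank, whereas the right flank held T more often in the Ngn3-OE-only set. The longer E-box consensus given by the study was present in 7.60% of the set, 1.41% of control-only peaks, 6.21% of shared peaks and 0.634% of the windows 2 kb away. More than 1 E-box was present in 7.89% of the set, against 1.98% of control-only and 4.62% of shared peaks.

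The CRX/OTX element GGATTA also differed in share between the sets. It was found in 740 peaks, 26.8% (25.2 to 28.5), against 5.90% of control-only peaks (difference 20.9 points, 19.0 to 22.8) and 21.2% of shared peaks (difference 5.58 points, 3.91 to 7.32). Windows 2 kb away held it in 7.86%, which is above the share at control-only summits. Without the fold threshold the difference from control-only peaks was 10.9 points. The SOX core ATTGT went the other way. It was found in 24.6% of the set, 46.1% of control-only peaks (difference −21.53 points, −24.11 to −18.91, and −9.42 without the fold threshold) and 26.6% of shared peaks (difference −1.95 points, −3.58 to −0.24). The homeodomain core TAATTA, bound by LHX and paired-class factors, was also less frequent than in control-only peaks, 8.36% against 13.7%, as was the AP-1 element TGANTCA, 6.08% against 9.16%. The core pattern of CTCF was found in 3.55% of the set and 3.57% of control-only peaks, and in 7.59% of shared peaks. Little separated the set from control-only peaks for the nuclear receptor element AGGTCA (15.6% and 15.9%) or GGGCGG of SP/KLF factors (5.61% and 5.06%). For each of these elements except CTCF, the share in Ngn3-OE-only peaks lay closer to that of shared peaks than the share in control-only peaks did. A match is a string of letters and not a measured binding site.

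The matches were placed around the summit and not spread over the window. E-boxes were centred within 25 bp of the summit in 14.1% of the set and at 200 to 225 bp in 5.5%, whereas control-only peaks had 6.43% and 4.10%. For the CRX/OTX element the shares were 14.5% and 2.03% in the set, and 1.76% and 1.85% in control-only peaks, which had no rise towards the summit. The SOX core was depleted at the summit of Ngn3-OE-only peaks, 5.14% within 25 bp and 10.1% at 200 to 225 bp. In control-only peaks it rose towards the summit, with 18.3% and 10.2%. Shared peaks had the same shapes as the Ngn3-OE-only set, with 11% and 4.21% for the E-box, 10.6% and 1.77% for CRX/OTX and 6.69% and 9.56% for SOX.

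**Figure D2:**
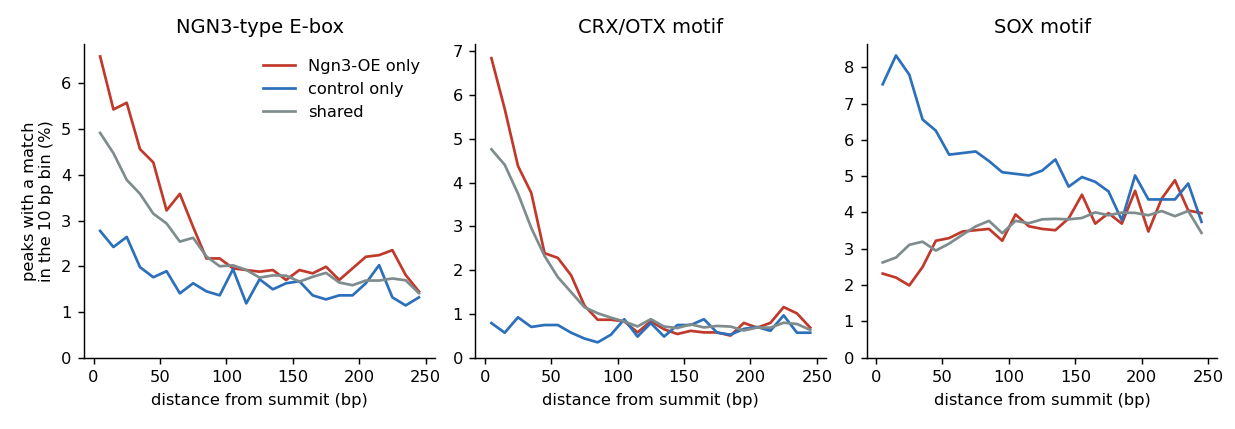
Share of peaks with a match (y axis, %) in each 10 bp bin of distance from the summit (x axis, bp), for the CATCTG E-box, the CRX/OTX element and the SOX core in Ngn3-OE-only, control-only and shared distal peaks. E-box and CRX/OTX matches gather at the summit of Ngn3-OE-only and shared peaks, and SOX matches gather there only in control-only peaks among these 3 sets.

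The E-box and the CRX/OTX element tended to sit in different peaks. Both were present in 169 peaks, 6.12% of the set, where the product of their shares would give 8.47%. The E-box was found in 22.8% of the 740 peaks with a CRX/OTX element and in 34.8% of the 2022 without, a difference of −11.98 points (−15.55 to −8.21). In shared peaks the same difference was −3.35 points (−4.44 to −2.23), and in control-only peaks −3.09 points (−8.27 to 3.99). The E-box alone was found in 704 peaks (25.5%), the CRX/OTX element alone in 571 (20.7%) and neither in 1318 (47.7%). Neither was found in 77.9% of control-only and 56.9% of shared peaks. The SOX core was found in 23.5% of peaks with the E-box and 25.1% of those without, an interval of −5.02 to 1.83 points for the difference. Among the 1318 peaks with neither element, CAGCTG was found in 19.0%, AGGTCA in 14.5% and the CTCF pattern in 5.61%, against 19.3%, 15.7% and 3.73% of the control-only peaks with neither. The SOX core was found in 25.7% of them, against 47.2% in the control-only counterpart.

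These contents were also counted by the number of tags at the summit. The E-box was found in 31.1% of the 1549 peaks with 7 or 8 tags, 31.2% of the 884 with 9 to 11 and 35.3% of the 329 with 12 or more. The CRX/OTX share was 28.5%, 25.2% and 23.1%, and the SOX share 25.4%, 25% and 20.1%, so the CRX/OTX and SOX shares were lowest in the class with most tags. In control-only peaks of the same tag classes the CRX/OTX share was 7.82%, 4.83% and 2.61% and the SOX share 43.7%, 44.2% and 56.1%. The gap between the sets was therefore wider among the peaks with 12 or more tags for SOX. Position in the genome mattered little for the E-box, with 32.4% in introns and 30.1% between genes. The SOX share was 29.9% in the 666 peaks more than 100 kb from a protein-coding start and 21.4% in the 1074 within 20 kb. The CRX/OTX share was 22.3% in the 593 peaks with a control peak within 1 kb and 27.6% in the 841 with none within 10 kb.

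**Figure D3:**
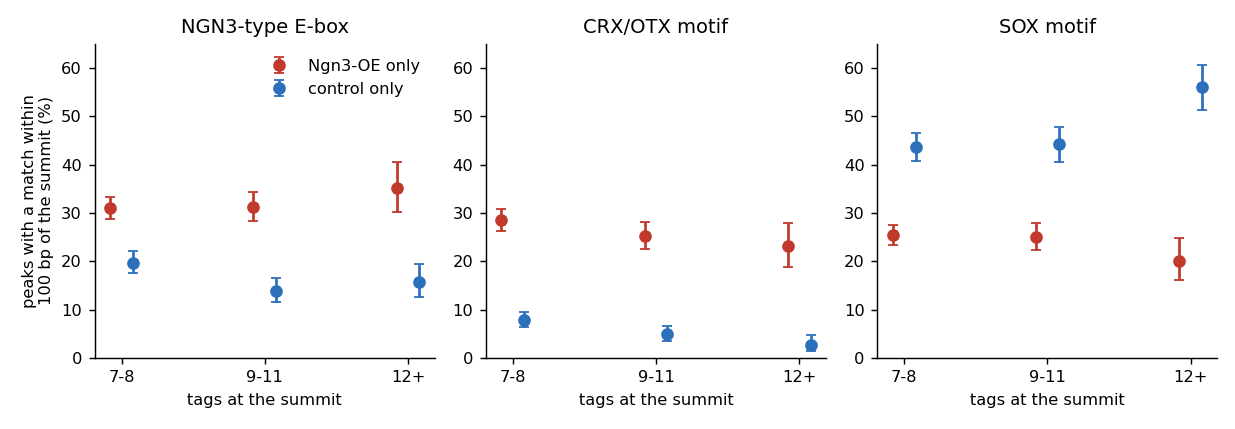
Share of peaks with a match within 100 bp of the summit (y axis, %) by tags at the summit (x axis) in Ngn3-OE-only and control-only distal peaks, with 95% Wilson intervals as bars. The sets are apart for each element in each tag class, also among the weakest peaks with 7 or 8 tags.

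By annotation, 1529 peaks (55.4%, 53.5 to 57.2) had their summit in an intron and 1124 (40.7%) between genes. Another 71 (2.57%) lay in untranslated or noncoding exons and 38 (1.38%) in coding exons. The intron share was 5.07 points above that of control-only peaks (2.3 to 7.83) and 3.66 points above that of shared peaks (1.73 to 5.57). The median distance to a protein-coding start was 30.7 kb, against 41.9 kb for control-only and 28.7 kb for shared peaks. More than 100 kb from any such start lay 24.1%, 30.2% and 21.5% of them. Peaks were found on all chromosomes but Y, which had no distal peak in the Ngn3-OE list, and made up between 3.06% (chromosome 12) and 4.15% (chromosome 19) of the distal peaks.

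Assigned to the nearest protein-coding start, the 2762 peaks fell to 2173 genes. A single peak was the rule, with 1732 genes, while 332 genes had 2, 80 had 3, 23 had 4, 2 had 5 and 4 had 6. The control-only peaks fell to 1727 genes, and 573 genes had both kinds, 26.4% of the first list and 33.2% of the second. Genes with a distal peak numbered 12402, which is the background for these counts, and the overlap is not read as a result. Long genes and genes in wide intervals hold more peaks of every kind, so each gene's count is set beside its distal peaks. The genes were ranked by these counts, which are given as a description. The counts depend on which starts are used. With the nearest gene of any type, noncoding genes included, Dscam had 1 peak in place of 6, Cdh13 had 2 of 6, Chd7 3 of 6, Gli2 and Fam19a5 1 of 5 each, Grm7 and Ralgapa2 2 of 4 each, and Nectin3 none of 4.

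Dscam, a homophilic adhesion molecule that spaces retinal neurites, had 6 of its 57 distal peaks in the set (10.5%, 4.91 to 21.1). None of its 44 distal control peaks was control-only. The fold enrichments of the 6 peaks ran from 6.36 to 9.55 with 7 to 11 tags, 5 of the 6 lay inside the gene, and 3 held the E-box. Cdh13, a truncated cadherin, had 6 of 72, with the CRX/OTX element in 3 peaks, and no control-only peak among 53 distal control peaks. Cdh4, which encodes R-cadherin of the retina, had 6 of 101 (5.94%) and 1 control-only peak. None of its 6 peaks held the E-box or the CRX/OTX element, and 4 held the SOX core. Grm7, a metabotropic glutamate receptor gene, had 4 of 37 and 1 control-only peak. All 4 of its peaks held the E-box, their fold enrichments were 7.95 to 9.60, and 1 of them directly adjoined a control peak while another lay 0.215 kb from one. With control peaks kept at least 500 bp away, Grm7 had 2. Nectin3, an adhesion gene, had 4 of 29 and 2 control-only peaks, all 4 outside the gene at 119 to 869 kb from its start, and the strongest reached 11.9 with 14 tags.

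Gli2, the main activator of Hedgehog transcription and thus a gene of progenitor growth, had 5 of its 39 distal peaks in the set (12.8%, 5.60 to 26.7). All 5 lay inside the gene, and none of its 26 distal control peaks was control-only. The E-box was in 3 of the 5, and 3 peaks were left when control peaks within 500 bp were not allowed. Chd7, a chromatin remodeller, had 6 of 64 and 2 control-only peaks, with 2 of the 6 inside the gene. Pag1, an adaptor of Src-family kinases, had 4 of 24 and 2 control-only peaks, with the E-box in 3 and a fold enrichment of 11.9 in the strongest. Ralgapa2, which encodes part of a Ral GTPase-activating complex, had 4 of 38, all inside the gene, with the E-box in 3. Atp8a1, a phospholipid flippase gene, had 4 of 20 (20.0%, 8.07 to 41.6) and no control-only peak among 14 distal control peaks. Fam19a5, a secreted brain protein gene, had 5 of 60 and 2 control-only peaks. In all, 11 genes had 4 or more Ngn3-OE-only peaks and no control-only peak, and 13 genes had the reverse.

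Chains of 3 or more peaks with at most 20 kb between neighbours formed 9 loci, which held 29 peaks (1.05% of the set). With gaps of 10 and 50 kb there were 3 and 21 loci. With other thresholds there were 0 at the upper quartile and 1613 without a fold threshold. Cutting each list to its 50000 peaks of highest −log10 q, control peaks included, gave 89. The control-only set formed 3 loci by the 20 kb rule. A locus near Nucb2 and another in Arid1b had 4 peaks each, and the others had 3. The first lay in the interval between Nucb2 and Xylt1 at chr7:116735830-116747176. There, 4 peaks stood within 11.3 kb, 195 kb beyond the end of Nucb2 and 634 kb from Xylt1, and no control peak or other Ngn3-OE peak lay among them. Their fold enrichments were 6.89, 8.33, 6.94 and 6.36, from 9, 11, 9 and 7 tags. The CATCTG E-box was within 50 bp of the summit of all 4, and its position is shown by the capitals in the lines below, drawn as above.
locus near Nucb2, first peak, chr7:116735819-116735918: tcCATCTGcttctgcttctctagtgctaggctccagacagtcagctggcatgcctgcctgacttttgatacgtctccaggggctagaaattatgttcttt
locus near Nucb2, the second peak, chr7:116736598-116736697: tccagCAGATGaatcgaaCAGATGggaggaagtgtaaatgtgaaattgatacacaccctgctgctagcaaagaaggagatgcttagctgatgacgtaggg
locus near Nucb2, the third peak, chr7:116737924-116738023: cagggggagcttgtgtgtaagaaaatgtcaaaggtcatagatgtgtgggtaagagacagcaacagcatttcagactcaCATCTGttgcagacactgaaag
locus near Nucb2, the fourth peak, chr7:116747092-116747191: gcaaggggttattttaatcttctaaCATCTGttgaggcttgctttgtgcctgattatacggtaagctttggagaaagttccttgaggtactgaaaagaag

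The other locus without any further peak was in an intron of Psd3, which encodes an exchange factor of ARF6 at synapses. At chr8:68044053-68046903, 3 peaks stood within 2.85 kb, with fold enrichments of 7.97, 7.25 and 9.38 from 10, 9 and 12 tags, and the nearest control peak was 15.1 kb from the third. The middle peak held a pair of E-boxes near its summit. A pair was also present in 1 of the 3 Gli2 peaks of the locus at chr1:118888304-118911022.
Psd3 intron, middle peak, chr8:68044954-68045053: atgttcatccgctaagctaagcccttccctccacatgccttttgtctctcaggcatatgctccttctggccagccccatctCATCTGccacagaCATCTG
Gli2 intron, chr1:118905102-118905201: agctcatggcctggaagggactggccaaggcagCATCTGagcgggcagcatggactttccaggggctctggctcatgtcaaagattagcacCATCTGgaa

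The remaining loci also held other peaks. In an intron of Arid1b, a subunit gene of the BAF chromatin remodelling complex, 4 peaks spanned 33.3 kb at chr17:5297557-5330847 beside 5 other Ngn3-OE peaks and 4 control peaks. Their fold enrichments were 6.36 to 7.75, and 2 held the E-box. The nearest protein-coding start there was that of Ldhal6b and not of Arid1b, the gene that houses the peaks. Rnf220, a ubiquitin ligase gene, had 3 peaks within 13.5 kb, of which the strongest had a fold enrichment of 11.3 from 15 tags. Nfatc2, a calcium-responsive transcription factor gene, had 3 within 8.03 kb (7.52 to 9.12) beside 1 control peak. Hivep3, a zinc finger gene, had 3 within 23.2 kb beside 4 control peaks. Pag1 had 3 within 23.4 kb (6.63 to 8.89) beside 1 control peak, and Gli2 had 3 within 22.7 kb (6.36 to 7.81) beside 2. The E-box was present in 13 of the 29 peaks of the 9 loci.

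**Figure D4:**
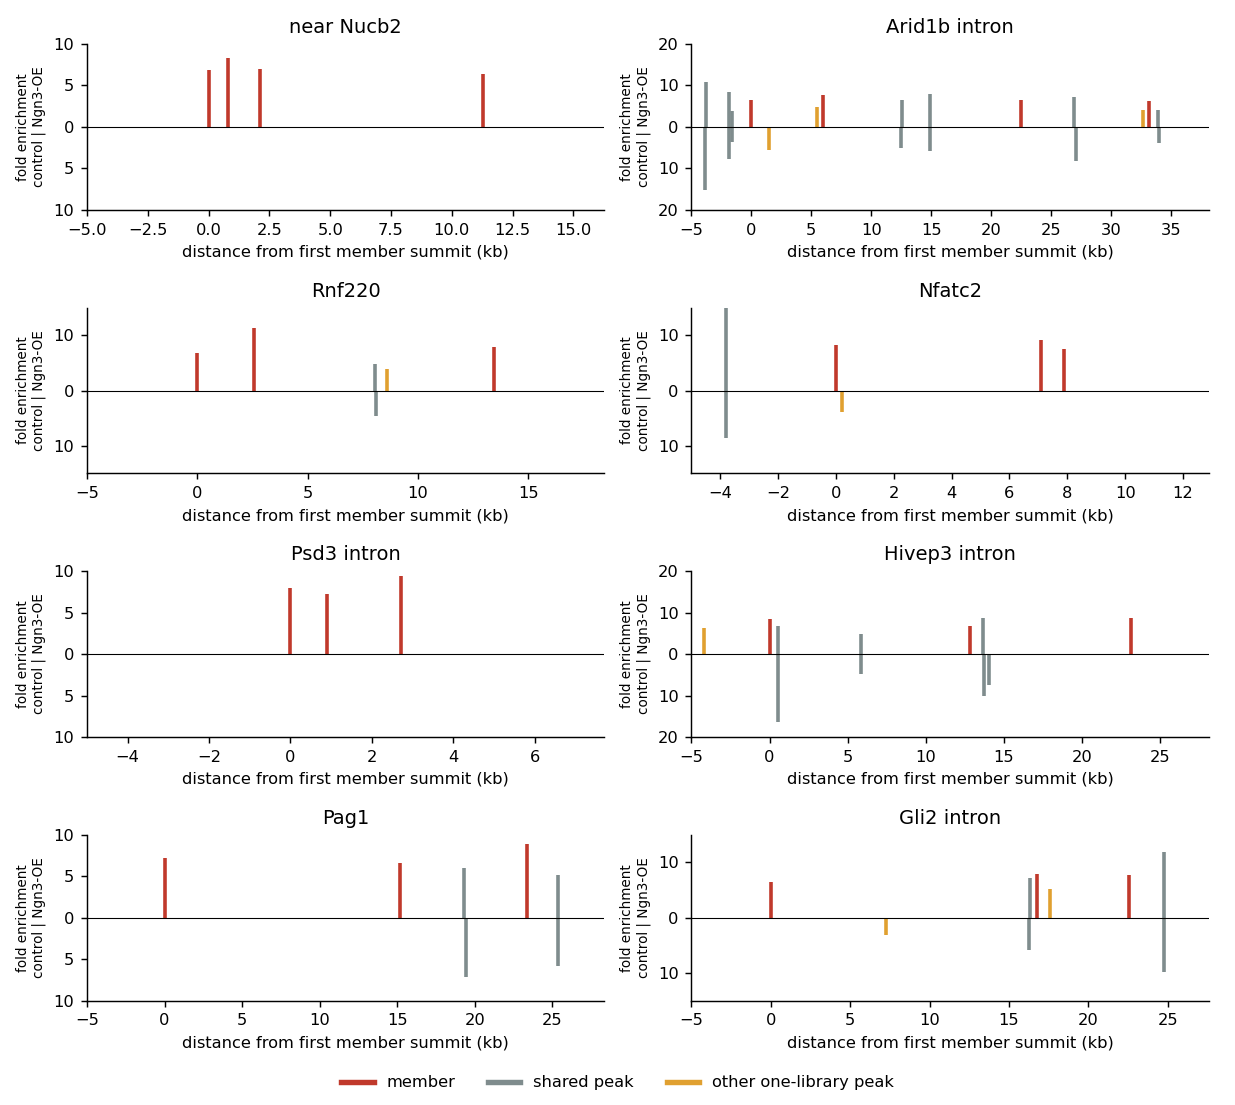
Peaks in the 8 leading loci by distance from the first Ngn3-OE-only summit (x axis, kb) and fold enrichment (y axis, Ngn3-OE library upwards and control library downwards, each on its own library's scale). Members are the Ngn3-OE-only distal peaks of the set, and the loci near Nucb2 and in Psd3 hold no other peak of either library, whereas the Arid1b, Hivep3 and Gli2 loci also hold shared peaks.

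Genes of retinal cell types and of neurogenesis were examined through 11 lists, each read against the 3.45% background of the Ngn3-OE set and 3.04% of distal control peaks for the control-only set. Retinal progenitor genes had 5 of 383 distal peaks in the set (1.31%, 0.559 to 3.02), and their control-only count was 15 of 405 (3.70%, 2.26 to 6.02). The 5 were single peaks assigned to Sox2, Sox9, Hes1, Nfib and Nfix. The Notch pathway, which keeps progenitors undifferentiated, had 1 of 168 (0.595%, 0.105 to 3.29), in an intron of the protease gene Adam10, against 7 of 166 control-only peaks. The upper limits of both intervals lay just below the background.

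Photoreceptor genes had 5 of 151 (3.31%, 1.42 to 7.52) and no control-only peak among 121 distal control peaks, a count of 0 that allows a share of up to 2.48% by a limit of 3 counts and 3.08% by the Wilson interval. The second limit includes the 3.04% control background. The 5 peaks were assigned to Esrrb (2 peaks), a nuclear receptor gene of rods, and to Sag, Thrb and Nr2e3. The Nr2e3 peak lay in an intron of the neighbouring gene Thsd4. They had 7 or 8 tags, and none of them held the E-box, the CRX/OTX element or the SOX core within 100 bp of the summit. Retinal ganglion cell genes had 9 of 292 (3.08%) and 8 control-only peaks. Sox11 and Sox4 had 2 each, and the strongest of the list, in an intron of Ebf1, had a −log10 q of 17.1 from 14 tags. Ebf1 had 1 control-only peak as well. Isl1 had 2 control-only peaks, and Pou4f1, Irx2, Gap43 and Nefl had 1 each, while none of these genes had a peak in the set. Genes of bipolar, amacrine and horizontal cells had 8 of 226 (3.54%) and 7 control-only peaks, with 2 each for Meis2, Prkca and Prox1. Meis2 and Prox1 had more control-only peaks, 3 each. Müller glial genes had 6 of 115 (5.22%, 2.41 to 10.9) and 4 control-only peaks. The 6 were single peaks of 7 to 12 tags assigned to Aqp4, Car2, Dapl1, Dkk3, Slc1a3 and Vim. That of Aqp4 lay 54.4 kb upstream in an intron of Chst9. The control-only peaks were assigned to Spon1 (2 peaks), Aqp4 and Glul. The Glul peak had a fold enrichment of 14.7 from 30 tags.

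The neurogenin cascade list, of proneural factors and genes known to act downstream of them, had 9 of 356 (2.53%, 1.34 to 4.73) and 10 control-only peaks. Gadd45g, a cell cycle exit gene, had 3 and 1 control-only peak, and Plxna2, a semaphorin receptor gene, had 2 of each kind, while Nhlh1, Elavl2, Elavl4 and Srrm4 had 1 each. Myt1l had 3 control-only peaks and Cdkn1c had 2, with none of either gene in the set. The Nhlh1 peak had 13 tags and lay 0.071 kb from a control peak. Pancreatic endocrine genes, the best known setting of Neurog3 action, had 4 of 141 (2.84%) and 4 control-only peaks. Abcc8, Ins1 and Sst were assigned single peaks of the set, and Isl1 was assigned 2 control-only peaks. None of either kind was assigned to Neurog3 itself. Axon guidance, adhesion and synapse genes had 56 of 1664 (3.37%, 2.60 to 4.34) over 32 of the 40 genes, and 66 control-only peaks of 1577 (4.19%, 3.3 to 5.29) over 29 of the 40. Dscam led with 6, followed by Dcc and Ncam1 with 4, beside 2 and 3 control-only peaks. Tenm3 led the control-only peaks of the list with 9, beside 3 in the set. Lsamp, Cadm2 and Magi2 had 4 control-only peaks each, beside 0, 1 and 1 in the set. TGF-beta and BMP genes had 11 of 339 (3.24%) and an equal count of control-only peaks. Cell cycle genes had 3 of 127 (2.36%) and 5 control-only peaks. The E-box, found in 31.6% of the whole set, was held by 24 of the 56 peaks of the axon guidance list, 6 of 9 for ganglion cells, 5 of 11 for TGF-beta and BMP and 3 of 9 for the neurogenin cascade. It was held by 2 of 8 for bipolar, amacrine and horizontal cells, 2 of 6 for Müller glia, 1 of 5 for progenitors, 1 of 4 for endocrine genes, 1 of 3 for the cell cycle, the 1 Notch peak and none of the 5 photoreceptor peaks. Apart from the progenitor and Notch lists, the Ngn3-OE interval of every list included the 3.45% background. Among control-only shares, the interval of the axon guidance list alone lay above its 3.04% background.

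**Figure D5:**
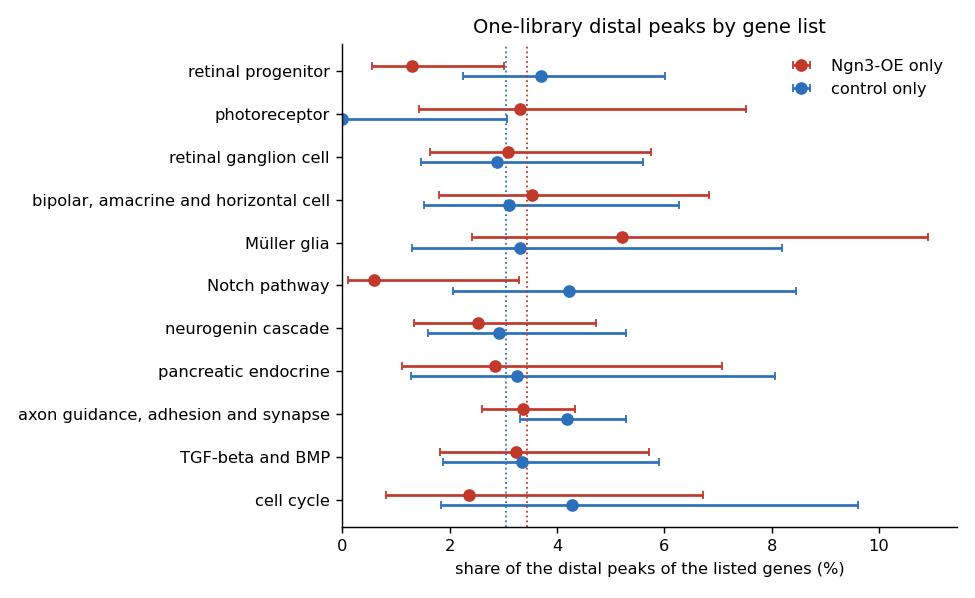
Share of the distal peaks of each gene list (x axis, %) that were Ngn3-OE-only or control-only, with 95% Wilson intervals as bars and dotted lines at the 3.45% and 3.04% of all distal peaks. Of the 11 lists, only the progenitor and Notch pathway lists have an Ngn3-OE interval wholly below the Ngn3-OE line, and photoreceptor genes have no control-only peak.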

How the data were processed

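ATAC-seq peak lists of 1 control and 1 Ngn3-OE library were used, each on the mm10 build. Per the labels and the study's methods, the authors trimmed reads with Trimmomatic, aligned them with Bowtie2, removed duplicates (Picard), mitochondrial reads (SAMtools) and blacklisted regions (bedtools), shifted short fragments for the Tn5 cut (deepTools) and called peaks in each library separately with MACS2. The short-fragment filter favours nucleosome-free DNA, so wider nucleosomal signal is not covered. The deposited files give, for each peak, an integer score (not used), a fold enrichment (a ratio of summit pileup to local background), its significance as −log10 p-value and −log10 q-value, and the summit offset. The largest q in the Ngn3-OE list was 0.05. These values are not normalised between libraries, and total read depth was not analysed here, because the lists do not carry it.

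Lines with 1 interval were merged to the line with the highest fold enrichment, from 136761 Ngn3-OE and 128853 control lines. Transcript starts were the 132721 of GENCODE M21. Tags at the summit were solved from fold enrichment and −log10 p, and all were whole to within 0.01 for the Ngn3-OE-only set. Sequences came from the RefSeq copy of GRCm38, the same assembly as mm10. Motifs were counted on both strands in windows of 201 bp, so a palindromic E-box counts once. In TGANTCA, N is any base. The study's longer consensus overlaps CATCTG. Near-identical copies (blastn 2.17.0) covered at least 90% of a peak at 95% identity. Scripts ran in Python 3.11.15 with numpy 2.4.6, pandas 2.3.3, scipy 1.17.1 and matplotlib 3.10.9, and were tested on simulated data.

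With 1 library per group no p-value was computed. Wilson, Newcombe and Poisson intervals hold counting error alone, and peaks that lie close together are not independent. The set, the gene lists and the motifs were chosen with earlier results of these data known, including the E-box, CRX/OTX and SOX patterns, so those patterns are not independent support. Named were the 10 peaks highest by fold enrichment or −log10 q, the 12 genes and 8 loci with most peaks (ties, among them the 23 genes with 4 peaks, ordered by summed fold enrichment), and the leading genes of each list, although some of the genes this rule names are not reported here. The progenitor, Müller, endocrine and photoreceptor genes with single peaks, the list genes named for control-only peaks, and the windows printed, were picked for display after their values were seen.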

Additional observations from a re-analysis of the deposited data

How the results depend on the processing

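The size of the set moved most with the fold threshold and with a cut of each list to 50000 peaks. Without a fold threshold there were 24432 peaks, at the upper quartile 66, strictly above the median 1838, and with the 50000 peaks of highest −log10 q in each list 6884. That cut kept the median fold threshold, but control peaks beyond the 50000 no longer counted as overlaps, so 2 choices changed at once. The other 9 settings kept the number within 1.5 times. Under those first 2 settings and the cut to 50000 peaks, the E-box difference from control-only peaks was 6.03, 23.5 and 7.74 points, that of SOX −9.42, −31.61 and −15.63, that of CRX/OTX 10.9, 14.6 and 17.9, and the E-box difference from shared peaks 0.947, 9.58 and 1.71. At the upper quartile the last had an interval from −1.17 to 21.7. Windows of 50 bp moved the E-box difference to 11.6 and that of CRX/OTX to 17.7, and windows of 250 bp moved SOX to −13.46. No motif difference changed sign in any setting run, matching on GC content included (E-box 14.4, SOX −19.45, CRX/OTX 21.2). The intron share was 48.5% at the upper quartile and 51.5% over 10 kb from a start. The number of loci was 1613 without a threshold, 0 at the upper quartile, 89 with each list cut to 50000 peaks, 3 with a gap of 10 kb and 21 with 50 kb. Of the 12 leading genes, 10 had no peak left at the upper quartile, and with the nearest gene of any type the counts ran from 0 to 4. The settings for annotation subset, ties, repeats and copies, and all those for CRX/OTX, were added after seeing the data, and copies were not searched for shared peaks.

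No paired analysis was possible because each group had 1 library and no result came from a test between samples. For the same reason no library was left out. Of the peaks in the set, 924 rested on 7 tags, the lowest pileup the fold threshold admits, and a control region just short of a call and a closed one cannot be told apart in the lists.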
